A study of Homo sapiens with 4 samples.

Results

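Genes of the cellular motors and of the centrosome give rise to circular RNAs in AGS cells, an established human gastric adenocarcinoma line. The circRNAs described here are all rows of the deposited count table whose host gene name begins with KIF, DYNC, CEP or TUBGCP, or with MYO and a digit, with DYNC1H1 left out. These are 195 circRNAs of 64 host genes, of 11760 circRNAs and 4410 host genes in all. The rule itself used names only and no measured value, but it was chosen with earlier results of these data known. The cells had been transfected with FLAG-DDX5, a tagged DEAD-box RNA helicase (DDX5), or with the FLAG-tagged empty vector (NC), and each group had 2 libraries. RNA was depleted of rRNA and treated with RNase R, an exonuclease that digests linear RNA, and reads across back-splice junctions were counted. A back-splice joins the end of a downstream exon to the start of an upstream exon of the same gene. The study calls the libraries biological replicates without saying whether they came from separate cultures, so p-values measure the spread between these libraries. Back-splice counts do not measure linear mRNA, and DDX5 itself hosts no circRNA in the count table, so its overexpression was not checked here.

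Kinesins walk along microtubules, most of them towards the plus end, while cytoplasmic dynein walks towards the minus end. Unconventional myosins move or anchor membranes on actin filaments. The centrosome, a pair of centrioles within pericentriolar material, nucleates microtubules through ring complexes of gamma-tubulin and TUBGCP proteins and forms the poles of the mitotic spindle. The proteins act as part of these machines, and what their circular transcripts do is not known from these data.

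By role, 33 circRNAs came from 12 mitotic kinesins, 33 from 12 other kinesins, 1 from the kinesin-binding protein KIF1BP, 5 from 3 dynein subunits, 62 from 20 centrosomal proteins, 13 from 5 gamma-tubulin complex proteins and 48 from 11 unconventional myosins. Reads were present for 108 circRNAs of 47 hosts. All circRNAs of the other 17 hosts were listed at 0 reads in every library: CEP162, CEP290, CEP57L1, CEP85L, DYNC2LI1, TUBGCP2, TUBGCP6, KIF18B, KIF22, KIF16B, KIF17, KIF1C, KIF21A, KIF27, KIF3B, KIF5B and MYO9A. Back-splice reads numbered 78377 and 60178 in the DDX5 libraries, against 73173 and 97961 in the NC libraries. Levels are given as RPM, reads scaled to the same total of back-splice reads per library, and a single read equals 10.2 to 16.6 RPM. No count equals 1, and the smallest above 0 is 2. Of the epithelial markers looked for, CDH1, EPCAM, ESRP1 and GRHL2 had circRNAs, together with 303 and 249 reads in DDX5 cells, against 251 and 422 in NC cells. The other 14 epithelial markers host no circRNA in the table, nor do any of 13 stromal and immune markers.

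Of the 10 most abundant circRNAs by mean RPM, 8 are shown first by their junctions, since the junction is the only stretch that tells a circle from its linear mRNA. Each line gives the last bases of the downstream exon in lower case and then the first bases of the upstream exon in capitals, and the back-splice lies where the case changes. The sequences are those of GENCODE 29 transcripts, with exons numbered along the transcript.
MYO9B exon 2: ggccctgtgctggagCTCCAGGACACGCGC
KIF2C exons 11 to 13: atctacaatgggaagGTTCACAGCAAGGCC
CEP72 exons 2 to 3: agctccagcagctggCTGAGCTTCAGTCAT
CEP192 exons 2 to 9: ccagatcttaacagtTGAGATGGAAGATTT
CEP350 exons 7 to 8: cagaatgcagaacagGTTTCAACCCTTCAG
TUBGCP3 exons 12 to 17: tgagaaacatgccagTTTTTTGTAGCATCA
MYO19 exons 12 to 14: ggaccactttcatagGTCCTAGCTGGACTG
CEP85 exons 5 to 7: aaacaggaagaaaggCTTCAGAATGGAGCC

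In the coordinates of the files these circles lie at chr19:17212470-17213367 (MYO9B), chr1:45223228-45223812 (KIF2C), chr5:619105-620376 (CEP72), chr18:12999420-13019205 (CEP192), chr1:179972309-179975702 (CEP350), chr13:113170754-113181798 (TUBGCP3), chr17:34864901-34867294 (MYO19) and chr1:26584088-26586293 (CEP85). MYO9B, KIF2C, CEP72, CEP192, CEP350 and CEP85 are on the plus strand, the others on the minus strand. The submitters' processing notes name hg38, yet among 11760 circRNAs only 88 start where GENCODE 29 places an exon start on GRCh38. The coordinates of the files thus do not match GRCh38, and which build they follow was not determined. Exons were therefore assigned where the genomic span of a circle equals the distance between 2 exon edges of its host. Of the 108 circRNAs with reads, 105 were placed in this way.

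KIF2C shows how circles of 1 gene share edges. Its circles of exons 11 to 13 and 11 to 14 begin at the same exon, so that the capitals recur in the junction of the longer circle, at chr1:45223228-45225020 in the coordinates of the files.
KIF2C exons 11 to 14: gggcagcgcctgcagGTTCACAGCAAGGCC

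The junctions with the smallest p-values of the comparison described further on are shown next, since that comparison turns on them. The first 4 had more reads in DDX5 cells and the other 5 more in NC cells.
CEP128 exons 7 to 9: ctgcagctacaggagCTTCATGGTTTTCAT
KIF13A exons 33 to 35: gatgaagatgacaagGCAACTGAGGAGATA
KIF24 exons 5 to 7: cagagtctactggctGCTCTTTGCAAGAGA
MYO1E exons 18 to 19: aaagcccccgagtctGGTAAAGCATCAAGT
KIF23 exons 4 to 6: gacttcttctagcaaACTCAGTATTCATTT
TUBGCP4 exons 6 to 7: gaactgcaggacttgATTCATGGTTGTCAA
KIF15 exon 8: gggatgagattgaagGTGTTGTCTGGAGGA
CEP350 exons 29 to 30: ctatgacacagtcagAAATAGCAAGTGAAG
DYNC1LI2 exons 4 to 5: gtggtgtgcacaaagATCACACGCGCTGCA

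These circles lie at chr14:81329101-81366373 (CEP128), chr6:17775246-17779330 (KIF13A), chr9:34269255-34286702 (KIF24), chr15:59470592-59480415 (MYO1E), chr15:69713986-69714774 (KIF23), chr15:43672282-43675702 (TUBGCP4), chr3:44835709-44835918 (KIF15), chr1:180047598-180049796 (CEP350) and chr16:66769978-66776571 (DYNC1LI2). The CEP72 circle of exons 2 to 3, printed above, belongs to the same set on the higher side. KIF23, TUBGCP4, KIF15 and CEP350 are on the plus strand, and CEP128, KIF13A, KIF24, MYO1E and DYNC1LI2 on the minus strand.

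Both KIF2C, the mitotic kinesin with the most reads, and KIF15, the host with the smallest p, have circles that are short and wholly coding. They are printed in full, with the bases that meet at the back-splice in capitals at both ends. Only junction reads were counted, so the interior is that of the annotated exons and was not observed. The KIF2C circle takes in the exon that encodes the ATP-binding loop of the motor domain, and the KIF15 circle encodes the stretch of its motor domain that holds the nucleotide-sensing switch loops.
KIF2C circle, exons 11 to 13: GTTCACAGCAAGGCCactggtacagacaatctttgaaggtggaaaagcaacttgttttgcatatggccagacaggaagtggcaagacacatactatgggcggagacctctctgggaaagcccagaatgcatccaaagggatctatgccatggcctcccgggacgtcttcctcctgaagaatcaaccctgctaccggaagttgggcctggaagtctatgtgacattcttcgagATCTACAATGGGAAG
KIF15 circle, exon 8: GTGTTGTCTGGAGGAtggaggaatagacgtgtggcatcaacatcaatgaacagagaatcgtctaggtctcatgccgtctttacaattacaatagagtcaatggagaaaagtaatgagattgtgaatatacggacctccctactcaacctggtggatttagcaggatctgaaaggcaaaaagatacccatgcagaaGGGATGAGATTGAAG

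The motor and centrosome circRNAs together differed between DDX5 and NC cells by less than the spread of the DDX5 libraries. Summed over all of them, they had 10692 and 12496 RPM in DDX5 cells (11594 ± 1276, SD, n = 2), against 11261 and 11076 RPM in NC cells (11168 ± 131, SD, n = 2). The log2 ratio was 0.05, and it was -0.06 with TMM scaling (edgeR's correction for library composition) and -0.02 without MYO9B. In bulk RNA, fewer cells with a circRNA and less of it per cell cannot be told apart. The number of circRNAs detected was 45 and 42 in DDX5 cells versus 40 and 55 in NC cells, and 45 and 42 against 39 and 51 after thinning every library to 60178 reads.

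**Figure D1:**
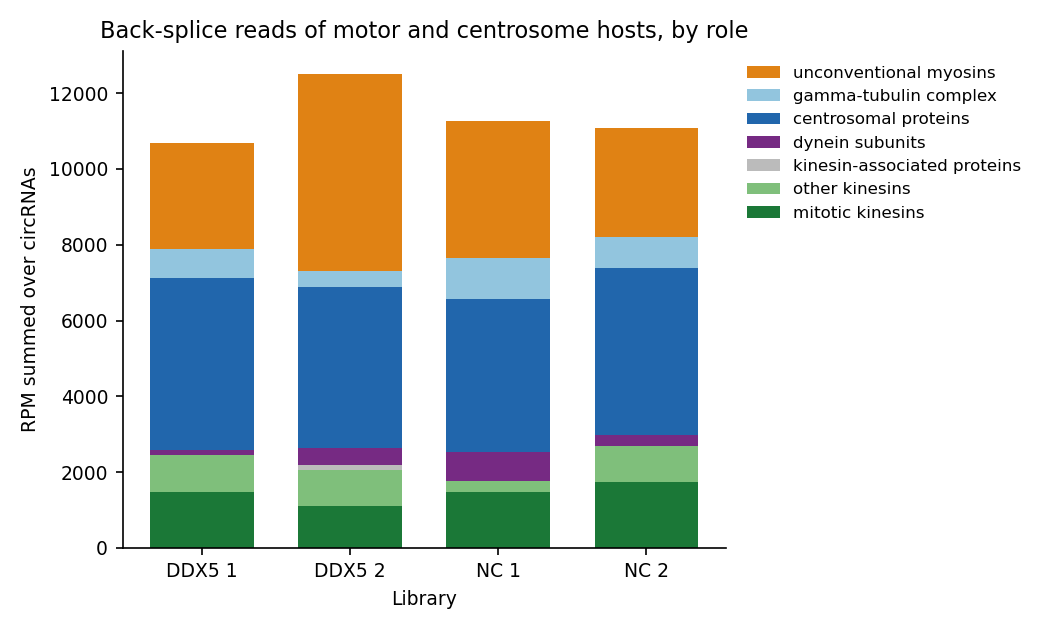
RPM summed over the circRNAs of each role (y axis) in the 4 libraries (x axis), stacked by role. Centrosomal proteins and unconventional myosins make up most of each bar, and the whole bars stand between 10692 and 12496 RPM.

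Among the roles, centrosomal proteins contributed most, with 4398 ± 204 RPM in DDX5 cells, against 4221 ± 268 RPM in NC cells, a log2 ratio of 0.06 (-0.05 with TMM scaling and -0.0039 without the first NC library). Unconventional myosins followed with 3989 ± 1690 RPM in DDX5 cells versus 3243 ± 516 RPM in NC cells, a log2 ratio of 0.30 that was -0.22 without the second DDX5 library. Mitotic kinesins had 1288 ± 271 RPM in DDX5 cells, against 1604 ± 200 RPM in NC cells, a log2 ratio of -0.32 (-0.55 to -0.12 on leaving out 1 library). Dynein subunits had 286 ± 206 RPM in DDX5 cells, against 526 ± 339 RPM in NC cells, a log2 ratio of -0.88 that lay between -1.90 without the second DDX5 library and 0.0019 without the first NC library. In these 4 roles the libraries of both groups overlapped.

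For 2 roles they did not. The other kinesins had 970 and 964 RPM in DDX5 cells versus 314 and 949 RPM in NC cells, so that only the first NC library was clearly lower, and the log2 ratio was 0.61 with it, 0.03 without it and 1.62 without the second NC library. The gamma-tubulin complex proteins had 766 and 432 RPM in DDX5 cells, against 1080 and 806 RPM in NC cells, a log2 ratio of -0.66 (-1.13 to -0.30 on leaving out 1 library). These sums carry no test, since members were chosen with results known, and they are given as a description.

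The comparison of single circRNAs and of single hosts asks whether FLAG-DDX5 changed how much of them was present. Counts were tested with edgeR's quasi-likelihood test over all circRNAs, or all hosts, whose reads over the 4 libraries came to at least 10. Of the motor and centrosome circRNAs 55 passed this filter, and 37 of their hosts did. None of the 55 circRNAs had an adjusted p under 0.05 in either direction, where the whole table had 0.0856% higher and 0.0% lower among 4671 tested. None of the 37 hosts had one either (0.0% in each direction among 2703 hosts). Counts were also simulated with the same spread for every feature, a common value estimated from these libraries. The test recovered none of the 4-fold and 16-fold changes put into them. Features with a smaller spread than this common value were not simulated. The lack of calls does not show that levels were alike. The smallest adjusted p in edgeR was 0.950 for the circRNAs and 0.9996 for the hosts. At an unadjusted p under 0.05, 0 circRNAs were higher or lower (1.28% and 1.37% of all), 0 hosts were higher (1.11%) and 1 host, KIF15, was lower (1.41%). DESeq2's Wald test and limma on log2(RPM + 1) called 0 at the adjusted threshold as well, while limma on log2(RPM + 0.1) called 1 circRNA higher, 3 circRNAs lower and 3 hosts lower.

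Both DDX5 libraries lay above both NC libraries in RPM for 7 of 55 circRNAs (10.8% of all tested) and below them for 6 (12.5%). For hosts the counts were 6 higher (13.2%) and 6 lower (15.7%) of 37. The higher hosts were CEP78, CEP89, CEP135, KIF13A, KIF24 and MYO1E, and the lower ones CEP170, CEP250, KIF15, KIF1B, MYO5C and TUBGCP4. The median fitted log2 fold change was -0.65 for the 55 circRNAs and -0.27 for all tested, and -0.23 and -0.13 for hosts, and these medians were the same with circRNAs or hosts that had no reads in 1 group set at their bounds. Positive fold changes were fitted for 21 of the circRNAs and negative ones for 34, against 2009 and 2662 of all tested. Both the medians and these counts turned on single libraries and on the filter. The median of the motor and centrosome circRNAs was -1.35 without the first DDX5 library (-0.92 for all), and it was 0.09 without the second NC library (0.05 for all), with 23 positive and 18 negative. Among those with at least 20 reads it was -0.08 (-0.14 for all), with 14 positive and 14 negative.

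**Figure D2:**
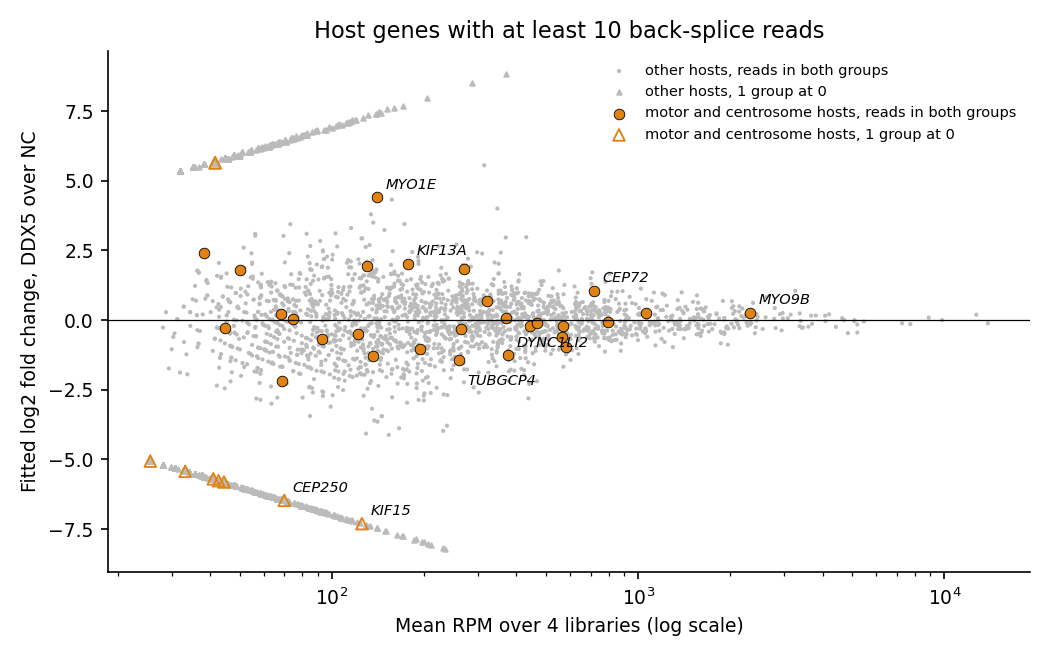
Fitted log2 fold change of DDX5 over NC (y axis, edgeR) against mean RPM over the 4 libraries (x axis, log scale) for hosts with at least 10 reads, motor and centrosome hosts in orange and all others in grey. Triangles are hosts without reads in 1 group, whose fitted value depends on the prior count and is no measured fold. The orange points lie within the cloud of other hosts.

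Mitotic kinesins build, focus and pull apart the spindle. KIF2C, which depolymerises microtubules at centromeres and corrects faulty attachments, had the most reads, with 70 and 41 in DDX5 cells, against 66 and 70 in NC cells. Its mean was 787 ± 150 RPM in DDX5 cells versus 808 ± 133 RPM in NC cells (log2 fold change -0.08, SE 0.52), and the libraries of both groups overlapped. Its circle of exons 11 to 13 held 89.5% of the host's reads, with 65 and 41 reads in DDX5 cells, against 66 and 49 in NC cells. The longer circle that ends 1 exon later had 5 and 0 reads in DDX5 cells, against 0 and 21 in NC cells.

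KIF15, a plus-end motor that helps keep the spindle bipolar, had 0 and 0 reads in DDX5 cells versus 18 and 25 in NC cells. In RPM this was 0 in DDX5 cells against 251 ± 6.51 (SD, n = 2) in NC cells. Against a floor of 3 reads over both DDX5 libraries (21.7 RPM) the host was at least 11.6-fold lower in DDX5 cells. This bound covers counting error of the DDX5 reads only. It takes the NC reads as counted, and counting error in those could lower it. The unadjusted p was 0.0287 in edgeR and the adjusted p 0.9996. The NC libraries reached like totals through different circles. Exon 8 alone had 18 and 0 reads in NC cells, exons 6 to 8 had 0 and 16, and exons 6 to 7 had 0 and 9. Each of these circles was therefore seen in 1 library only. Without the first NC library the unadjusted edgeR p was 0.162, without the second it was 0.184, and with a block for the replicate number it was 0.149.

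KIF23, the motor of the centralspindlin complex that organises the midzone for cytokinesis, spread its reads over 4 circles. The host had 32 and 4 reads in DDX5 cells, against 12 and 41 in NC cells, and the groups overlapped. Exons 4 to 6 had 0 and 0 reads in DDX5 cells, against 5 and 17 in NC cells, at least 5.94-fold lower in DDX5 cells, with an unadjusted edgeR p of 0.185. Exons 13 to 14 had 32 and 0 reads in DDX5 cells versus 0 and 12 in NC cells.

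The remaining mitotic kinesins had few reads. KIF4A, a chromokinesin, had 5 and 5 reads in DDX5 cells, against 0 and 22 in NC cells. KIF11, the motor that slides spindle poles apart, had 0 and 0 in DDX5 cells, against 0 and 13 in NC cells, spread over 3 circles. KIF14, which acts in cytokinesis, had 0 and 9 in DDX5 cells versus 9 and 0 in NC cells, each from another circle. KIF18A, KIF2A, KIF20B and KIFC1 had between 2 and 7 reads, each in 1 library.

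Among the other kinesins, KIF24 acts at the mother centriole, where it restrains cilium formation. It had 20 and 36 reads in DDX5 cells, against 0 and 22 in NC cells, or 427 ± 243 RPM in DDX5 cells, against 112 ± 159 RPM in NC cells. The log2 fold change was 1.81 (SE 1.54) and the unadjusted edgeR p 0.263. On leaving out 1 library it ranged from 0.85 without the first NC library to 7.89 without the second, where the only NC library left has no reads and the unadjusted edgeR p was 0.00829 (adjusted 0.818). Both of its detected circles have an edge at exon 5. Exons 4 to 5 had 20 and 23 reads in DDX5 cells versus 0 and 22 in NC cells, while exons 5 to 7 had 0 and 13 in DDX5 cells and none in NC cells.

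KIF13A, a motor of endosomes, had 27 and 14 reads in DDX5 cells, against 0 and 13 in NC cells (289 ± 79.1 RPM in DDX5 cells, against 66.4 ± 93.8 RPM in NC cells). Its log2 fold change ranged from 1.06 without the first NC library to 7.35 without the second (unadjusted edgeR p 0.0404), a fit against a library at 0 that depends on the prior count. The KIF13A circle of exons 33 to 35 had 12 and 9 reads, or 151 ± 2.51 RPM, in DDX5 cells versus 0 reads in both NC libraries, at least 8.65-fold higher in DDX5 cells. This circle had the smallest edgeR p of all 55 circRNAs, 0.133 before and 0.950 after adjustment. The circle of exons 33 to 37 begins at the same exon and had 15 and 5 reads in DDX5 cells, against 0 and 7 in NC cells.

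KIF1B, which carries mitochondria and synaptic vesicle precursors, had 6 and 5 reads in DDX5 cells, against 11 and 23 in NC cells, spread over 6 circles. The groups did not overlap (79.8 ± 4.62 RPM in DDX5 cells versus 193 ± 59.7 RPM in NC cells), yet 5 of the 6 circles were detected in 1 library only. Exons 42 to 43 were the exception, with 6 and 0 reads in DDX5 cells, against 0 and 9 in NC cells. KIF26B had 16 and 3 reads in DDX5 cells, against 12 and 35 in NC cells. KIF3A, a motor of ciliary transport, had 7 reads and KIF1BP 8 reads, each in 1 DDX5 library.

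**Figure D3:**
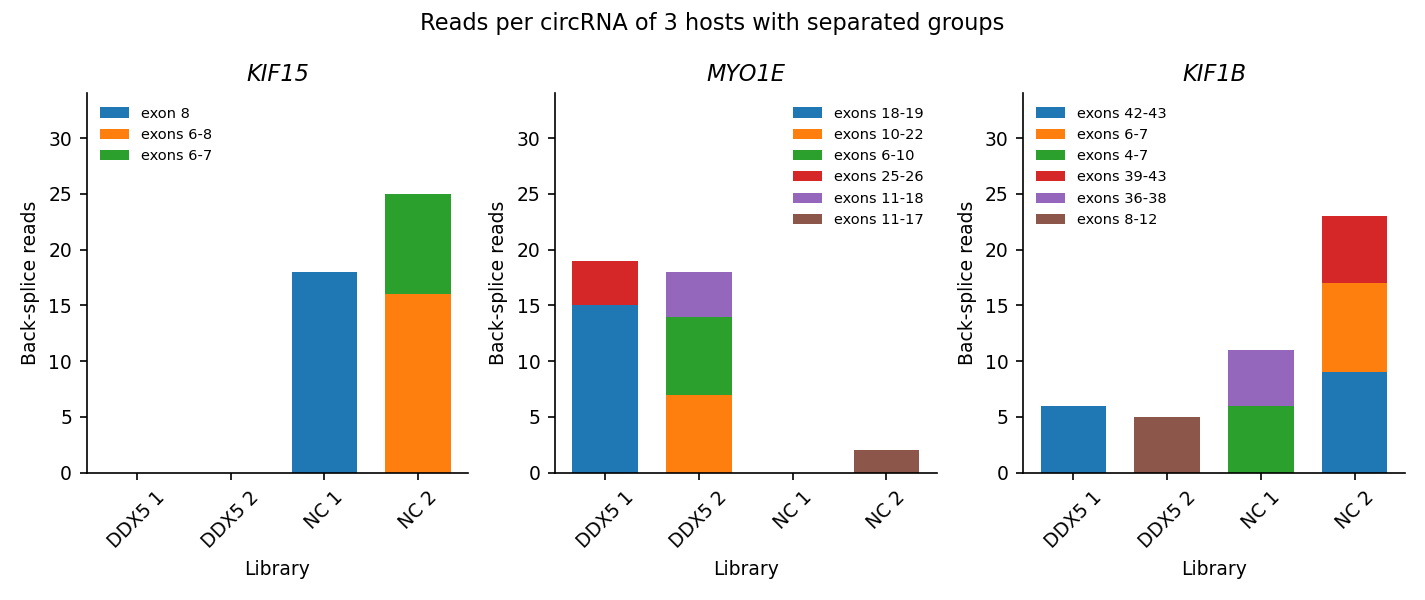
Back-splice reads (y axis) of KIF15, MYO1E and KIF1B in the 4 libraries (x axis), stacked by circle. The totals separate the groups, but most circles appear in 1 library only, as in KIF15 with 18 reads of exon 8 in the first NC library and 25 of other circles in the second.

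Cytoplasmic dynein was represented by its light intermediate chains, which link the motor to cargo adaptors. DYNC1LI2 had 11 and 19 reads in DDX5 cells versus 56 and 28 in NC cells, or 228 ± 124 RPM in DDX5 cells, against 526 ± 339 RPM in NC cells. The groups overlapped, and the log2 fold change was -1.26 (SE 0.93) with an unadjusted edgeR p of 0.202. It was -1.90 without the second DDX5 library and -0.40 without the first NC library. The DYNC1LI2 circle of exons 9 to 12 was present in all 4 libraries with 11 and 19 reads in DDX5 cells, against 31 and 28 in NC cells. The circles of exons 4 to 5 and 9 to 11 had 14 and 11 reads in the first NC library and none elsewhere. DYNC1LI1 had 7 reads in 1 DDX5 library.

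Centrosomal hosts include proteins of centriole assembly, of the appendages, of the pericentriolar material and of the satellites around it. CEP128, which builds the subdistal appendages of the mother centriole, was the strongest, with 73 and 85 reads in DDX5 cells versus 53 and 115 in NC cells. It reached 1172 ± 340 RPM in DDX5 cells, against 949 ± 318 RPM in NC cells (log2 fold change 0.24, SE 0.47), with overlapping groups. Its circles that share edges had these reads. Exons 5 to 8 had 38 and 45 reads in DDX5 cells, against 34 and 55 in NC cells. Exons 5 to 9 had 14 and 18 in DDX5 cells versus 9 and 38 in NC cells. Exons 7 to 9 had 6 and 20 in DDX5 cells, against 0 and 3 in NC cells. For this last circle the ratio of DDX5 to NC reads at equal totals was 10.7, with a 95% exact conditional interval of 3.28 to 55.3 that covers counting error only, and the edgeR p was 0.274 before adjustment.

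CEP72, a satellite protein, had 89 and 49 reads in DDX5 cells, against 68 and 0 in NC cells. The mean was 975 ± 227 RPM in DDX5 cells versus 465 ± 657 RPM in NC cells, and the single NC library with reads lay between the DDX5 libraries. The circle of exons 2 to 3 held 95.6% of the reads, with 80 and 49 in DDX5 cells, against 68 and 0 in NC cells. The log2 fold change of this circle was 0.92 (SE 0.69). Without the first NC library the adjusted edgeR p was 0.000144 for the circle and 0.0109 for the host, and without the second NC library the log2 fold change was -0.06 for the circle and 0.04 for the host.

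CEP85, which takes part in centriole duplication, had 38 and 19 reads in DDX5 cells, against 22 and 119 in NC cells, so that the second NC library alone was high. The log2 fold change was -0.97 (SE 0.76), against 0.38 without that library. In CEP85 the circle of exons 5 to 7 had 20 and 12 reads in DDX5 cells versus 22 and 59 in NC cells, which do not overlap in RPM (227 ± 39.4 in DDX5 cells, against 451 ± 213 in NC cells). The circle of exons 8 to 9 had 18 and 7 in DDX5 cells, against 0 and 42 in NC cells.

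CEP192, the scaffold on which pericentriolar material assembles, had 40 and 34 reads in DDX5 cells versus 40 and 63 in NC cells. The circle of its exons 2 to 9 had 474 ± 129 RPM in DDX5 cells, against 401 ± 32.5 RPM in NC cells. The one of exons 2 to 4, which begins at the same exon, had 10 and 0 reads in DDX5 cells, against 0 and 21 in NC cells.

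CEP350, which stabilises centriolar microtubules, had 54 and 13 reads in DDX5 cells versus 49 and 67 in NC cells. Exons 7 to 8 had 36 and 13 reads in DDX5 cells, against 37 and 48 in NC cells, the second DDX5 library being low. Exons 29 to 30 had no reads in DDX5 cells, against 10 and 9 in NC cells, at least 5.13-fold lower in DDX5 cells, with an unadjusted edgeR p of 0.210.

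CEP250, the linker protein that ties the centrioles together, had no reads in DDX5 cells versus 10 and 14 in NC cells. This was at least 6.48-fold lower in DDX5 cells, with an unadjusted edgeR p of 0.131. As in KIF15, the NC reads came from different circles, of exons 6 to 9 in the first library and of exons 18 to 20 in the second. CEP89, a protein of the distal appendages, had 35 and 21 reads in DDX5 cells, against 22 and 18 in NC cells, 398 ± 69.0 RPM in DDX5 cells, against 242 ± 82.7 RPM in NC cells, with a log2 fold change of 0.67 (SE 0.97; 0.37 to 1.06 on leaving out 1 library). Its circle of exons 13 to 14 was in all 4 libraries.

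The other centrosomal hosts with reads were low, with 1 or 2 circles each. CEP78 had 21 and 9 reads in DDX5 cells versus 0 and 10 in NC cells, and CEP135, a centriole assembly protein, had 6 and 5 in DDX5 cells, against 0 and 4 in NC cells. CEP170, of the subdistal appendages, had 0 and 3 in DDX5 cells, against 9 and 10 in NC cells. The ratio at equal totals was 0.195 (95% exact conditional interval 0.0370 to 0.663, counting error only). The log2 fold change was -2.20 (SE 3.43) with an unadjusted edgeR p of 0.535. In CEP170 the circle of exons 2 to 3 had 9 and 4 reads in NC cells and none in DDX5 cells. The circle of exons 2 to 7 had 0 and 3 in DDX5 cells, against 0 and 6 in NC cells. CEP120, which promotes centriole elongation, had 10 reads in the second DDX5 library and none elsewhere. CEP112 had 0 and 8 reads in DDX5 cells versus 0 and 2 in NC cells. Its ratio at equal totals was 4.94 (95% exact conditional interval 0.986 to 47.8, counting error only). CEP57 and CEP95 had 10 and 12 reads in 1 NC library each, and CEP131 and CEP164 had 7 and 3.

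The gamma-tubulin complex proteins TUBGCP3, TUBGCP4 and TUBGCP5 had reads. TUBGCP3, a core subunit, had 48 and 18 in DDX5 cells, against 31 and 52 in NC cells (456 ± 222 RPM in DDX5 cells, against 477 ± 75.8 RPM in NC cells), with overlapping groups. TUBGCP4 had 12 and 8 reads in DDX5 cells versus 35 and 27 in NC cells, or 143 ± 14.3 RPM in DDX5 cells, against 377 ± 143 RPM in NC cells. Its groups did not overlap, and the log2 fold change was -1.43 (SE 1.14) with an unadjusted edgeR p of 0.239 (-1.76 to -0.99 on leaving out 1 library). Its circle of exons 14 to 15, present in every library, had 12 and 8 reads in DDX5 cells, against 17 and 27 in NC cells, and that of exons 6 to 7 had 18 reads in the first NC library and none elsewhere. TUBGCP5 had 13 reads in 1 NC library.

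Among the unconventional myosins, MYO9B was the strongest host of all roles. It had 140 and 204 reads in DDX5 cells versus 161 and 189 in NC cells, or 2588 ± 1134 RPM in DDX5 cells, against 2065 ± 192 RPM in NC cells. The log2 fold change was 0.27 (SE 0.34), and it was -0.22 without the second DDX5 library. Reads were present for 3 of its 11 circRNAs, and the circle of exon 2, of 898 nt, held 98.4% of them.

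MYO10, which builds filopodia, and MYO19, which binds mitochondria, were next. MYO10 had 25 and 31 reads in DDX5 cells, against 32 and 49 in NC cells, 417 ± 139 RPM in DDX5 cells versus 469 ± 44.5 RPM in NC cells. MYO19 had 21 and 30 reads in DDX5 cells, against 52 and 0 in NC cells, so its NC libraries lay on either side of the DDX5 libraries.

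MYO1E, a class I myosin of the cell cortex and of endocytosis, had the smallest p among hosts with more reads in DDX5 cells. It had 19 and 18 reads in DDX5 cells, against 0 and 2 in NC cells, 271 ± 40.1 RPM in DDX5 cells versus 10.2 ± 14.4 RPM in NC cells. The ratio at equal totals was 22.8 (95% exact conditional interval 5.89 to 196, counting error only), and the edgeR p was 0.0828 before and 0.9996 after adjustment. The reads came from 6 circles, each in 1 library, with exons 18 to 19 at 15 reads in the first DDX5 library and 3 other circles at 4 to 7 reads in the second.

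The other myosins were low. Of the other class I myosins, MYO1C had 7 and 7 reads in DDX5 cells, against 4 and 22 in NC cells, and MYO1D had 3 and 7 in DDX5 cells, against 0 and 14 in NC cells. MYO5B, a motor of recycling endosomes, had 10 reads in the second DDX5 library and none elsewhere. MYO5C had none in DDX5 cells, against 8 and 6 in NC cells, at least 3.78-fold lower in DDX5 cells, with an unadjusted edgeR p of 0.270. The NC reads of MYO5C came from different circles, of exons 21 to 24 in the first library and of exons 21 to 25 in the second. MYO6, which moves towards the minus end of actin filaments, had 0 and 5 in DDX5 cells versus 7 and 0 in NC cells. MYO18A had 4 reads in 1 DDX5 library.

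**Figure D4:**
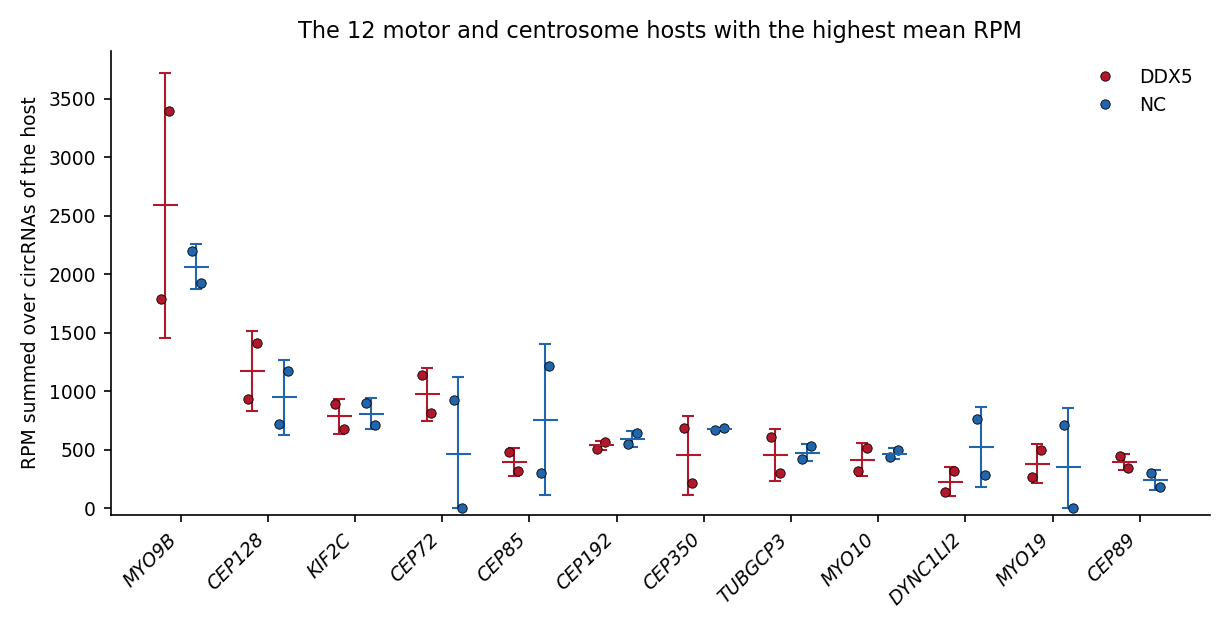
RPM summed over the circRNAs of a host (y axis) for the 12 hosts with the highest mean RPM (x axis). Points are libraries, horizontal lines are means and bars are SD (n = 2), with DDX5 left of NC. The groups overlap for all of them but CEP89, and CEP72 and MYO19 each have an NC library at 0.

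Most circles were not seen in every library. Of the 108 circRNAs with reads, 12 were found in all 4 libraries (11.1%, against 13.3% of all circRNAs with reads), and these held 57.6% of the reads. A further 70 were found in 1 library only (64.8%, against 55.4%) and held 15.8% of the reads. Reads were confined to DDX5 libraries for 30 circRNAs (27.8%, against 25.4% of all) and to NC libraries for 44 (40.7%, against 36.3%), and 34 had reads in both groups (31.5%, against 38.2%). Where a library held 10 reads or more of a circle, its replicate held 0 in 35 of 97 cases (36.1%, against 35.6% for all circRNAs). From 20 reads on this was so in 9 of 52 cases (17.3%, against 17.6%). Among these cases was CEP72, with 68 and 0 reads in NC cells. What left these libraries empty was not tested.

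**Figure D5:**
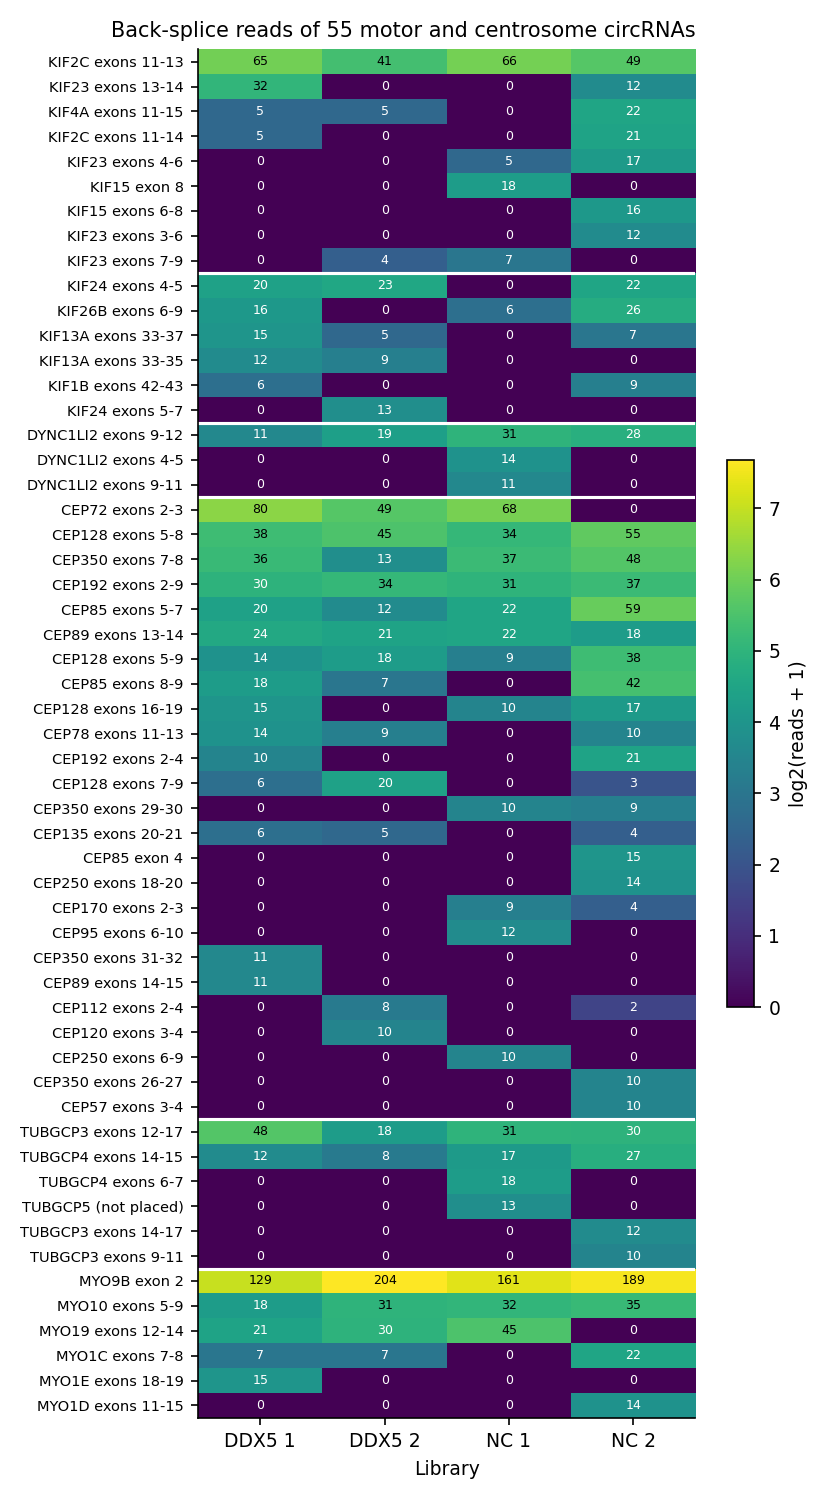
Back-splice reads (printed numbers; colour is log2 of reads + 1) of the 55 motor and centrosome circRNAs with at least 10 reads (rows, ordered by role) in the 4 libraries (columns). A few circles such as MYO9B exon 2 are filled in every column, while most rows are filled in 1 or 2 columns.

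The circles with reads had a median genomic span of 4005 bp and a median spliced length of 401 nt, against 4643 bp and 382 nt for all circRNAs with reads. Spliced lengths and coding shares take every annotated exon between the edges as included, which junction counts do not show. None of the placed circles began at exon 1 or took in the last exon, and only 7 and 7 of all 7315 placed circRNAs with reads did. Exon 2 was the first exon of 11 of 105 (10.5%), among them those of MYO9B, CEP72 and CEP192, against 25.0% of all placed circRNAs. Of the 105, 98 were wholly coding (93.3%, against 86.5%) and 6 were made of 1 exon (5.71%, against 7.05%). An edge was shared with another detected circle of the same host by 40 of 108 (37.0%, against 46.4%). These shares are descriptions without a test, since circles of 1 host are not independent.

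Of other genes of the same machines, 0 hosts and 0 circRNAs passed the adjusted threshold in edgeR. Of 10 tested hosts among dynactin, dynein adaptors and kinesin light chains, 1 was lower at an unadjusted p under 0.05, RAB11FIP3, an adaptor of recycling endosomes. Of 25 tested hosts among centrosome and spindle pole proteins without a CEP name, 0 were, while of their 43 tested circRNAs 1 was higher (WDR62, a spindle pole protein) and 2 were lower (CCDC66, a satellite protein, and PCNT, a scaffold of the pericentriolar material). Among conventional myosins and their regulators 0 of 6 hosts and 0 of 16 circRNAs were. Their shares stand beside 1.11% higher and 1.41% lower of all hosts, and 1.28% and 1.37% of all circRNAs.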

How the data were processed

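CircRNA-seq was done on AGS cells with 2 libraries per group, assigned by the sample labels. The authors deposited back-splice counts for each circRNA and a second table of RPM, which equals the counts scaled to the total of each library to within 0.00499. CIRCexplorer2 and CIRI2 are named by the study, BWA and hg38 by the submitters' processing notes. How the lists of the callers were joined, and any version, is not given in the sources used here. Counts were used as deposited. No count equals 1, so a minimum may have been applied before deposit. The depth was 60178 to 97961 reads per library. By counting error alone, a count of 0 is compatible with up to 3 expected reads, 30.6 to 49.9 RPM per library. If counts of 1 had been set to 0, this floor would be too low and the bounds built on it too high. In 36.1% of cases with 10 or more reads of a circle in a library its replicate held 0, a spread that the floor does not cover. PCR reads are not independent molecules, so floors and intervals cover counting error only.

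Tests were edgeR 4.0.16 (R 4.3.3) quasi-likelihood fits with TMM factors on circRNAs, and on sums per host gene, with at least 10 reads, adjusted by Benjamini-Hochberg over all tested at 0.05. Standard errors are the absolute log2 fold change over the square root of F. Where a group had no reads, the fold is a bound against 3 reads over its 2 libraries. It takes the reads of the other group as counted, so an interval covering both groups would reach lower folds. Where a group had 1 to 3 reads, an exact conditional binomial interval of the ratio was computed. It is given for CEP112, CEP128 exons 7 to 9, CEP170 and MYO1E. The intervals of the other such circRNAs all covered equality, as for CEP350 exon 6 (0.823 to 42.6). The script was tested on simulated counts. With counting error alone it recovered changes. With a common spread for all features, estimated from the real libraries, it recovered none at the adjusted threshold. Alternatives were other scalings and filters, DESeq2 1.42.0, edgeR's exact test, limma 3.58.1 on log2(RPM + 1) and log2(RPM + 0.1), a block for the replicate number, and each library left out in turn. Replicate numbers are shared by the groups, but the study names only an unpaired t-test, so the libraries were not paired. The replicate differences of both groups had r = 0.0093 over 4671 circRNAs and -0.017 over 2703 hosts. With many circles absent from a replicate, such an r cannot show that there was no pairing.

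Named with values are the 12 hosts and 10 circRNAs with the highest mean RPM, the 5 of each with the smallest p per direction, hosts with at least 4 circRNAs, and dynein and TUBGCP hosts with a read. Further ones were named after their values were seen. The members and all gene lists were chosen with earlier results of these data known. The lists are dynactin, dynein adaptors and kinesin light chains; centrosome proteins without a CEP name; conventional myosins and regulators; epithelial markers; and stromal and immune markers. Exons came from GENCODE 29, by span, and 36 of 39 hosts with several placed circRNAs had 1 common offset between both coordinate sets. Python 3.11.15 and pandas 2.3.3 were used for tables. Some junction sequences are not reported here.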

Additional observations from a re-analysis of the deposited data

How the results depend on the processing

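Of 371 refits of the 30 named fold changes, 351 kept direction and side of the threshold, 13 changed sign, each by leaving out 1 library, and 7 passed the threshold. Without DDX5 replicate 2 the log2 fold change was -0.22 for MYO9B, -0.046 for CEP128, 0.13 for KIF2C, 0.011 for CEP350, 0.34 for TUBGCP3 and -0.40 for MYO19. It was 0.049 for MYO10 without DDX5 replicate 1. Without NC replicate 1 it was -0.067 for CEP128 and 0.088 for KIF2C. Without NC replicate 2 it was 0.38 for CEP85, 0.083 for TUBGCP3, -0.94 for MYO19 and -0.063 for the CEP72 circle of exons 2 to 3. Over the refits that leave out 1 library, these log2 fold changes ranged from -0.22 to 0.63 (MYO9B), -0.067 to 0.64 (CEP128), -0.33 to 0.13 (KIF2C), -1.73 to 0.011 (CEP350), -0.76 to 0.34 (TUBGCP3), -0.57 to 0.049 (MYO10), -1.64 to 0.38 (CEP85), -0.94 to 7.89 (MYO19) and -0.063 to 9.13 (CEP72 circle). The 2 highest values are those without NC replicate 1, where the NC group is left with a library at 0. The cause was not tested.

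Leaving out 1 library gave 0 to 1 circRNAs and 0 to 1 hosts higher at the adjusted threshold (CEP72 in both), 0 to 2 circRNAs and 0 to 2 hosts higher at an unadjusted p under 0.05, 0 to 1 hosts lower, and a log2 ratio of all members between -0.063 and 0.16. Such refits take the spread of the lone library from the other group.

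Limma on log2(RPM + 0.1) called 1 circRNA higher (KIF13A exons 33 to 35) and 3 lower (KIF23 exons 4 to 6, CEP350 exons 29 to 30, CEP170 exons 2 to 3), and 3 hosts lower (KIF15, CEP250, MYO5C), at the adjusted threshold. It called 153 circRNAs higher and 261 lower in the whole table. Each of the 7 named here has 0 reads in 1 group and reads in both libraries of the other. At an unadjusted p under 0.05, limma with either pseudocount gave 1 circRNA higher, 3 circRNAs lower and 3 hosts lower. DESeq2's Wald test gave 1 host higher (MYO1E) and 1 lower (KIF15). With the replicate block 1 circRNA and 1 host, both CEP72, were higher and 0 hosts were lower, at an unadjusted p under 0.05, and no member passed the adjusted threshold. With at least 5 reads required, 38 circRNAs were detected on average in DDX5 cells, against 43.5 with any read.

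In the whole table, edgeR at an unadjusted p under 0.05 gave 60 higher and 64 lower circRNAs with TMM scaling, 75 and 54 with library totals and 73 and 47 with DESeq2 size factors. The last 2 scalings moved the median log2 fold change of all circRNAs by 0.10 and 0.14. At these depths circRNAs with 10 to 30 reads in all had standard errors of at least 3.12 on the log2 scale, and the lack of calls does not show that their levels were alike.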
